A study of Mus musculus with 96 samples.

Results

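The 8 genes described here, Tcp1, Cct2, Cct3, Cct4, Cct5, Cct6a, Cct7 and Cct8, encode the subunits of the cytosolic chaperonin CCT (also called TRiC). They were taken by symbol from the 40202 genes of each count file, and all 8 were present. The libraries came from the mouse lung line C10, labelled alveolar type II epithelial, and each library was made from 1 cell. Untreated cells (48 libraries) were compared with cells given RO-3306, which is known as a CDK1 inhibitor, at a stated 10 nM for 36 h (48 libraries). Both groups were C10 cells grown in RPMI with serum, sorted singly with a CellenONE dispenser and converted to cDNA with SMART-seq v4, and the series title places them in a workflow that splits the lysate of a cell between RNA and protein measurement. The labels name no separate cultures, so each treatment was handled as 1 sample. Values over cells are descriptions, and no test, standard error or p-value is given.

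CCT is a double ring in which each ring holds 1 copy of each of the 8 paralogous subunits, and it folds proteins in a closed central cavity driven by ATP hydrolysis. Actin and tubulin are its best known obligate clients, and cell cycle proteins such as Cdc20 and Cdh1 (encoded by Fzr1) also pass through it. Prefoldin hands unfolded actin and tubulin to the ring, and phosducin-like proteins assist it with particular clients. The subunits differ in how tightly they bind ATP. Those with tight binding (the products of Tcp1, Cct2, Cct4 and Cct5) lie together on one side of the ring, and those with weak binding (Cct3, Cct6a, Cct7 and Cct8) on the other.

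A cell was kept when its total reached 50000 counts over 1000 or more detected genes, which left 29 of 48 untreated cells and 37 of 48 RO-3306 cells. Their totals ran from 59979 to 6457215 counts in untreated cells and from 295005 to 5321880 in RO-3306 cells, with a median of 5177 and 6951 genes with a count. The median mitochondrial share was 3.40% in untreated and 4.42% in RO-3306 cells, and 1 RO-3306 cell (B3) had 56.0%. Of the 8 alveolar type II markers, Sftpc, Sftpa1, Sftpd, Slc34a2 and Napsa were listed at 0 in all kept cells, and only Abca3 reached a mean of 5 CPM (counts scaled to a total of 1000000). Sftpb had 8 counts in 1 RO-3306 cell, and Lamp3 had 15 counts over 8 untreated and 10 counts over 7 RO-3306 cells, so these markers were at or near 0. A listed 0 is not plain absence where spans overlap, as for Napsa (47.8% of its span). The summed epithelial markers were at 1.78 CPM in untreated and 0.978 CPM in RO-3306 cells in pooled counts. Per cell they ran from 0 to 395.7 CPM in untreated and from 0 to 48.2 CPM in RO-3306 cells, with medians of 0. Krt19 was found in 1 untreated cell, at 395.7 CPM, and Epcam in 1 untreated cell, at 266.8 CPM from 16 counts. The 7 mesenchymal markers summed to 5594 CPM and 2531 CPM. Sample titles carry one of the letters A to D. The meaning of the letters is not stated, and the 4 lettered sets were used to look at the spread of a ratio, not as replicates.

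In pooled counts scaled to the group total, all 8 subunits had a lower level in RO-3306 than in untreated cells. The differences were modest and uneven. Under TMM or DESeq2 scaling 6 of the 8 were lower, and without lettered set B 5 of the 8 were. Levels are CPM of the pooled counts of all kept cells in a group, and ratios are log2 of RO-3306 over untreated with 1 CPM added to each. Summed over the subunits, the level was 4104 CPM in untreated cells (95% Poisson interval 4088 to 4119) and 3053 CPM in RO-3306 cells (3041 to 3064), a log2 ratio of -0.43. The median over the 8 subunits was -0.41. Beside it, the median over all 9374 genes that averaged 5 CPM or more was -0.22, and the median over the 602 genes within the subunits' own range of mean CPM was 0.01, with 298 of these 602 (49.5%) below 0. Of all 9374 genes, 5526 (59.0%) were below 0. None of the 8 subunits was past 2-fold in either direction, where 24.2% of the 9374 genes had a log2 ratio at or below -1 and 12.2% had one at or above 1. In the genes of like level, 5.32% were at or below -1. Cct3 alone passed 2-fold under an alternative, at -1.01 with the stricter cell filter (at least 500000 counts and 3000 genes) and at -1.14 without set A, and leaving out 1 untreated cell (A1) also took it to -1.03. The intervals cover counting error only, and reads without molecular identifiers include PCR copies.

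With scaling by total counts, the lower summed level was present in each lettered set. The log2 ratios were -0.22 in A, -0.82 in B, -0.28 in C and -0.44 in D. The 4 sets of untreated cells had summed levels of 3394, 4704, 3744 and 4774 CPM, and the corresponding RO-3306 sets had 2915, 2670, 3080 and 3518 CPM. The groups overlap, since RO-3306 set D lay above untreated set A. The size of the difference moved with the scaling and the sets. Under TMM and DESeq2 scaling, which move all ratios up by 0.21 and 0.24, the ratio of the sums was -0.22 and -0.19. Shifts of this size are about as large as the ratio in set A (-0.22). A lower sum in every set therefore holds for scaling by total counts only. Without set B it was -0.23, and the median over the subunits was then -0.17 beside -0.17 for all genes. The reads of RO-3306 cells came from shorter mRNAs. The median over cells of the geometric mean length was 1726 nt in 34 RO-3306 cells, against 1957 nt in 25 untreated cells. The 1373 genes in the subunits' range of mRNA length had a median ratio of -0.14. Over the 9115 genes with a length, the Spearman coefficient between mRNA length and ratio was -0.36. The part of mRNA length in the result was not tested.

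**Figure D1:**
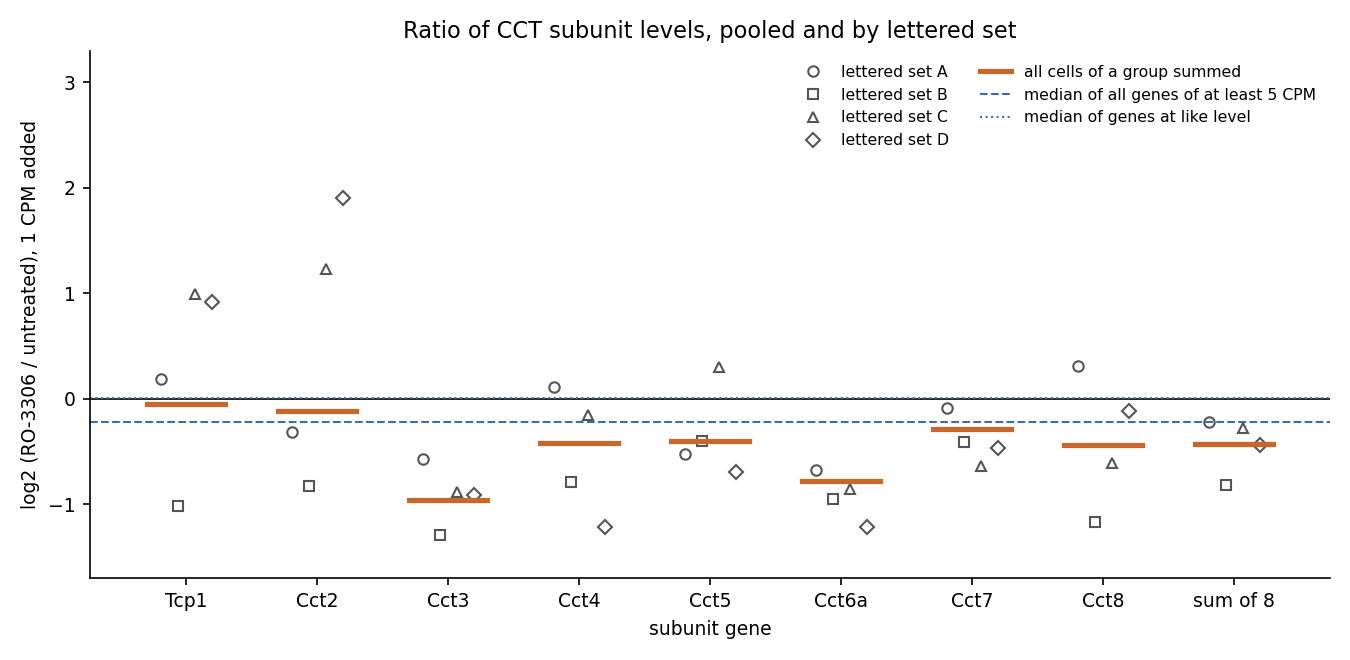
Log2 ratio of RO-3306 over untreated cells (y axis, 1 CPM added) for each subunit gene and for the sum of the 8 (x axis), with orange bars for all kept cells summed and open symbols for the lettered sets A to D. Dashed and dotted lines mark the medians of all genes of at least 5 CPM (-0.22) and of genes at like level (0.01). The 4 symbols of Cct3, Cct6a and Cct7 all lie below 0, while those of Tcp1 and Cct2 spread on both sides.

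Cct3, Cct6a and Cct7 were below 0 in all 4 lettered sets, that is 3 of 8 subunits, where 10.3% of the 9374 genes and 17.6% of the 602 genes of like level did the same. No subunit was above 0 in all 4 sets, against 13.1% of the 9374 genes. All 3 encode subunits of the side of the ring that binds ATP weakly, a grouping chosen after the values were seen. The remaining subunit of that side, Cct8, was above 0 in set A (0.31). After subtracting the median gene of each set, a choice made after seeing the data, Cct5, of the tight-binding side, joined Cct3, Cct6a and Cct7. Cct7 stayed by a narrow margin in set A, with -0.085 against -0.078 for the median gene. Under TMM or DESeq2 scaling 2 subunits remained below 0 in every set, because the ratio of Cct7 in set A was only -0.08. The shares of 10.3% and 17.6% belong to scaling by total counts, and none is given for these alternatives.

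Cct3 had the lowest ratio of the subunits. Its per-cell level ran from 0 through a median of 300.1 to 759 CPM in untreated cells, and from 0 through 142 to 924 CPM in RO-3306 cells. Apart from 1 RO-3306 cell at 924 CPM (C11), no RO-3306 cell was above 339 CPM. The summed level was 331 CPM (326 to 335) and 169 CPM (167 to 172), a log2 ratio of -0.96. Set values were 266, 400.2, 303 and 334 CPM in untreated sets A to D and 179, 162, 163 and 177 CPM in the RO-3306 sets. The sets of the 2 groups did not overlap.

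Cct6a had the highest summed CPM in untreated cells. Its per-cell level ran from 0 through a median of 707 to 1721 CPM in untreated cells, and from 2.40 through 377 to 2162 CPM in RO-3306 cells. The ranges overlap, and the highest cell of either group was RO-3306 C11. Summed levels of 706 CPM (700.0 to 713) and 410 CPM (406 to 414) gave a log2 ratio of -0.78. The sets had 588, 682, 776 and 1108 CPM in untreated cells against 369, 352, 429 and 475 CPM in RO-3306 cells, again without overlap.

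Cct7 and Cct8 differed less. Cct7 per cell ran from 25.96 through 589 to 1911 CPM in untreated cells and from 0 through 401 to 1295 CPM in RO-3306 cells. Its summed level was 610 CPM and 501 CPM, a log2 ratio of -0.28, with -0.08, -0.41, -0.64 and -0.46 in sets A to D. Cct8 per cell ran from 35.4 through 558 to 1527 CPM in untreated cells and from 24.8 through 340 to 3149 CPM in RO-3306 cells. Its summed level was 569 CPM and 418 CPM, a log2 ratio of -0.44. Set A went the other way for Cct8 (0.31), and without set B its ratio was 0.04.

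Cct5 and Cct4, of the tight-binding side, had ratios close to that of Cct8. Cct5 per cell ran from 0 through 615 to 1284 CPM in untreated cells and from 7.76 through 415 to 1307 CPM in RO-3306 cells. Its summed level was 685 CPM and 518 CPM, a log2 ratio of -0.40, and set C alone was above 0 (0.30). Cct4 per cell ran from 22.8 through 474 to 1678 CPM in untreated cells and from 0 through 304 to 2271 CPM in RO-3306 cells. Its summed level was 510 CPM and 382 CPM, a log2 ratio of -0.42, with set A slightly above 0 (0.11) and set D at -1.22.

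Tcp1 and Cct2 differed little between the groups in sum, and their sets disagreed. Tcp1, which encodes the alpha subunit, ran from 0 through 285 to 1221 CPM per untreated cell and from 0 through 329 to 776 CPM per RO-3306 cell. The summed levels of 398 CPM (393 to 403) and 383 CPM (379 to 387) gave a log2 ratio of -0.05, and the sets gave 0.19, -1.02, 0.99 and 0.91. Cct2 ran from 0 through 135 to 1224 CPM per untreated cell and from 0 through 244 to 820 CPM per RO-3306 cell. Its summed levels were 294 CPM (290.3 to 299) and 272 CPM (268 to 275), a log2 ratio of -0.12, and the sets gave -0.31, -0.83, 1.23 and 1.90. In both genes the median cell was higher in RO-3306 while the sum was lower, and the highest untreated cells lay above every RO-3306 cell. Both ratios were above 0 under TMM and DESeq2 scaling and without set B. Of the Tcp1 span, 33.1% is shared with Acat3, LOC115488839, Mrpl18 and Snora20, and reads there could not be given to 1 gene. The overlap was 2.85% of the span for Cct7, 2.31% for Cct6a, 1.52% for Cct8 and 0% for the other 4.

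**Figure D2:**
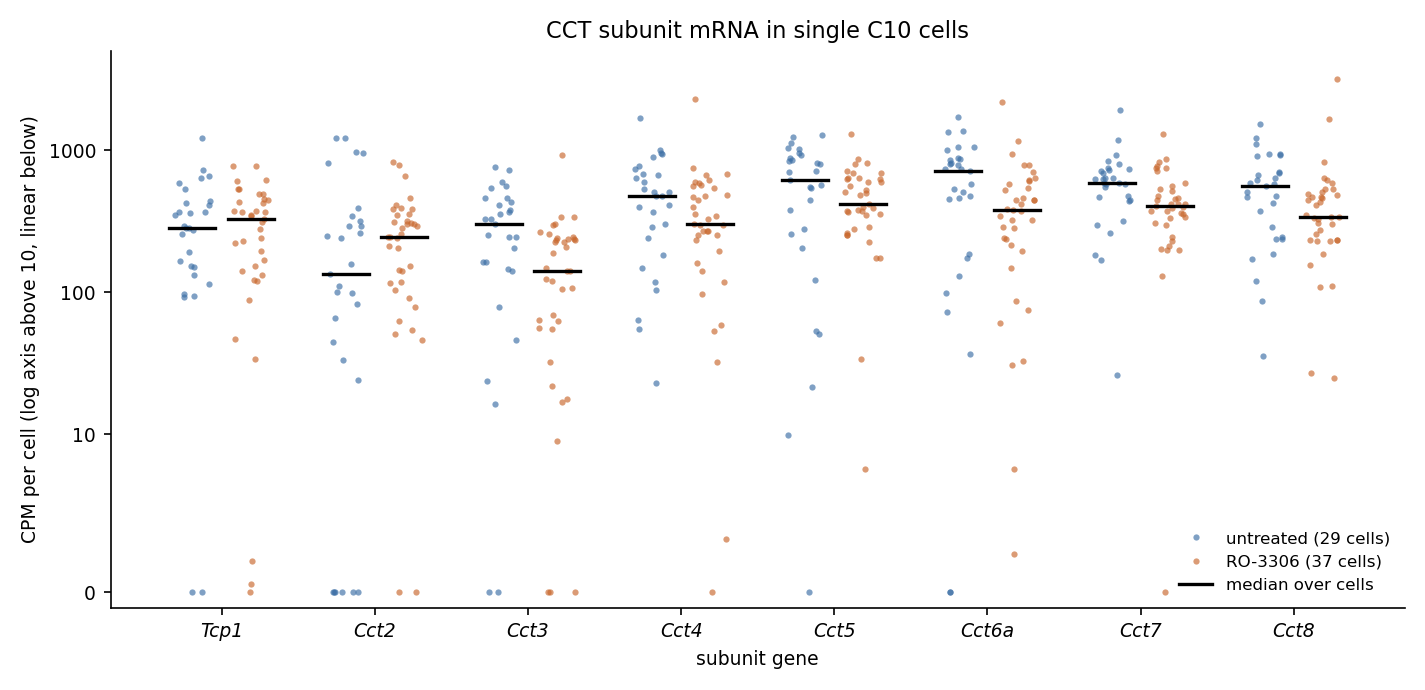
CPM per cell (y axis, log scale above 10 and linear below) of each subunit gene (x axis) in 29 untreated and 37 RO-3306 cells, 1 point per cell, with black bars for the median over cells. Medians are lower in RO-3306 cells for Cct3 to Cct8 and higher for Tcp1 and Cct2, and the points of the groups overlap for every gene.

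To remove the difference in depth, each cell was thinned to 639000 reads, which 25 untreated and 34 RO-3306 cells reached and 4 and 3 cells did not. The summed subunit level per cell then ran from 1972 through a median of 3944 to 5768 CPM in untreated cells and from 1685 through 2796 to 9768 CPM in RO-3306 cells. The ratio of the medians was 0.709, and it was 0.700 without thinning. Of the 34 RO-3306 cells, 31 lay below the untreated median and 4 below the lowest untreated cell, while 1 lay above the highest. That cell, RO-3306 C11, held 2159 genes at full depth, had Cct8 at 3149, Cct4 at 2271 and Cct6a at 2162 CPM, and had Tcp1 and Cct7 at 0. For single subunits, 33 of the 34 RO-3306 cells lay below the untreated median for Cct3, 31 for Cct5, 30 for Cct6a, 29 for Cct8, 27 for Cct7 and 21 for Cct4. For Tcp1 and Cct2 only 15 and 11 did so, out of the same 34.

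Most cells held reads of the complete set of subunits. At equal depth, all 8 had a read in 18 of 25 untreated cells (72%, exact binomial 95% interval 50.6% to 87.9%) and in 28 of 34 RO-3306 cells (82.4%, 65.5% to 93.2%). The intervals cover the counting of cells within 1 sample and make no comparison of the treatments. No cell had fewer than 6 subunits at this depth. In untreated cells Cct2 was the subunit missing most often, with a read in 21 of 25. In RO-3306 cells Cct2, Tcp1 and Cct3 each had one in 32 of 34. Cct8 was the only subunit with a read in every thinned cell of both groups, since Cct4 and Cct7 had one in all 25 untreated but 33 of 34 RO-3306 cells, and Cct5 in 24 of 25 and 34 of 34.

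Since the ring holds its subunits in equal number, their mRNA levels were also set side by side per length, in CPM per kb of mRNA. Lengths were taken from GENCODE M21 and ran from 1853 nt for Cct5 to 2484 nt for Cct4. With these lengths Cct5 was highest in both groups, with 369.6 CPM per kb in untreated and 279 in RO-3306 cells. In untreated cells it was followed by Cct6a (288), Cct7 (249.9), Cct8 (238), Cct4 (205), Cct3 (167), Tcp1 (163) and Cct2 (150.3). Sets A to D of untreated Cct5 gave 415, 338, 227 and 481 CPM per kb, so its place above Cct6a (239.8, 278, 316 and 452) was held in 3 of the 4 sets, set C being the exception. The 3 lowest, Cct3, Tcp1 and Cct2, differed by less than the spread between their sets. In RO-3306 cells the order was Cct5, Cct7 (205), Cct8 (175), Cct6a (167), Tcp1 (157), Cct4 (154), Cct2 (139) and Cct3 (85.7). Cct3 went from rank 6 to rank 8 and Tcp1 from rank 7 to rank 5. Counts covered exons and introns, while the lengths are those of mRNA, so all 8 places are approximate. The place of Tcp1 is uncertain, because 33.1% of its span is shared with other genes. That of Cct6a is also uncertain, because GENCODE M21 lists its transcripts without a coding sequence. For Cct6a the longest listed transcript was chosen. That transcript has 2454 nt. With the next longest (1599 nt), an alternative chosen after seeing the data, Cct6a had 442 CPM per kb in untreated cells, the highest of the 8. In RO-3306 cells it then had 256, rank 2. The highest level was then 2.94 times the lowest in untreated cells and 3.26 times in RO-3306 cells, against 2.46 and 3.26 times with the longest. The coefficient of variation over the 8 subunits of a group was 32.5% in untreated and 32.8% in RO-3306 cells with the longest transcript, and 42.4% and 35.004% with the next longest.

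Within single cells the subunits were less even than in the sums. At equal depth the coefficient of variation over the 8 subunits of a cell, per length, ran from 29.6% through a median of 77.9% to 186% in untreated cells and from 32.4% through 59.9% to 95.8% in RO-3306 cells. The median was lower in RO-3306 cells in sets A (78.4% against 86.3%), B (53.9% against 54.5%), C (60.5% against 77.3%) and D (52.2% against 99.4%), by under 1 percentage point in set B. This order by set held only in C and D at full depth, where A had 83.7% against 83.3% and B had 63.7% against 54.6%. With the shorter Cct6a transcript it held in A, C and D, and B had 69.3% against 54.4%. Over all cells the medians were 60.3% against 77.5% at full depth and 60.7% against 82.7% with that transcript. The most abundant subunit of a cell took a median of 31.2% of the summed level in untreated and 24.9% in RO-3306 cells. The number of genes with a read at this depth also moved with the group, with medians of 4576 and 5958, and its part in the result was not tested.

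**Figure D3:**
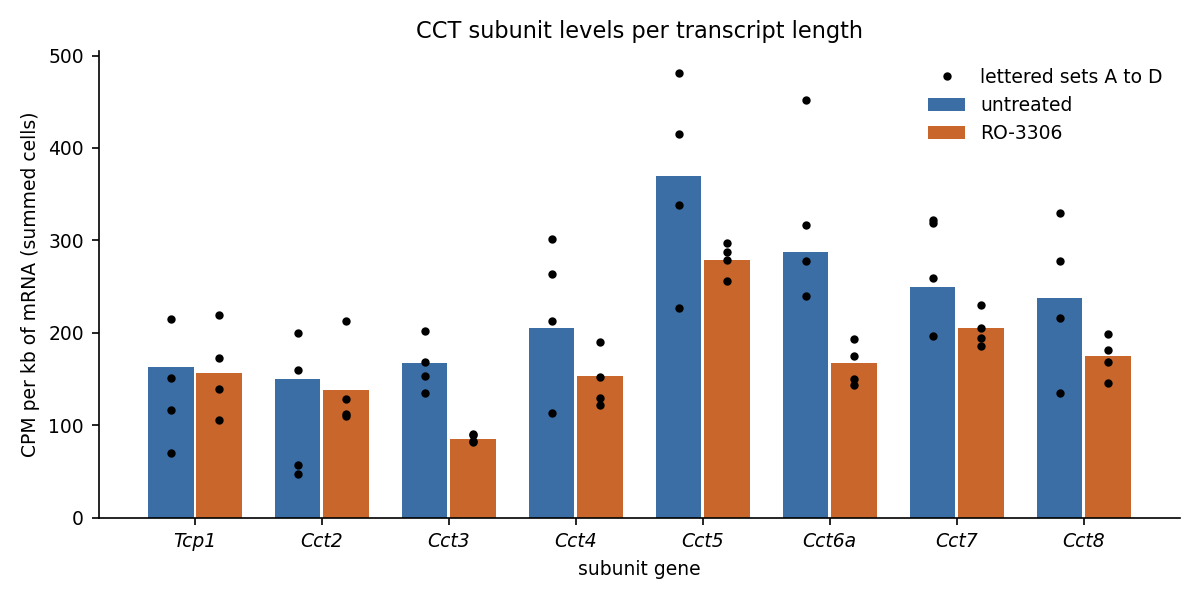
Level per kb of mRNA (y axis, CPM per kb) of each subunit gene (x axis), with bars for all kept cells of a group summed and black points for the lettered sets. With the longest Cct6a transcript, as drawn, Cct5 has the tallest bar in both groups, and the set points of the groups are apart for Cct3 and Cct6a only.

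Because the 8 products enter 1 complex, it was asked whether cells with much of one subunit mRNA had much of the others. Over the 25 untreated cells at equal depth the 28 pairs of subunits had Spearman coefficients from -0.25 (Cct2 and Cct6a) to 0.39 (Cct2 and Cct8), with a median of 0.08, and 21 pairs were above 0. Over the 34 RO-3306 cells they ran from -0.31 (Cct3 and Cct7) to 0.37 (Tcp1 and Cct2), with a median of 0.08 and 19 pairs above 0. These coefficients are weak, come from sparse single-cell reads, and share the library and its amplification, so they are given as a description only. No share over pairs of other genes stands beside the 21 and 19 pairs, so these counts show nothing particular to the subunits. The highest pair was not the same in the 2 groups. Tcp1 and Cct2, which were both above 0 in sets C and D, had 0.29 in untreated and 0.37 in RO-3306 cells.

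**Figure D4:**
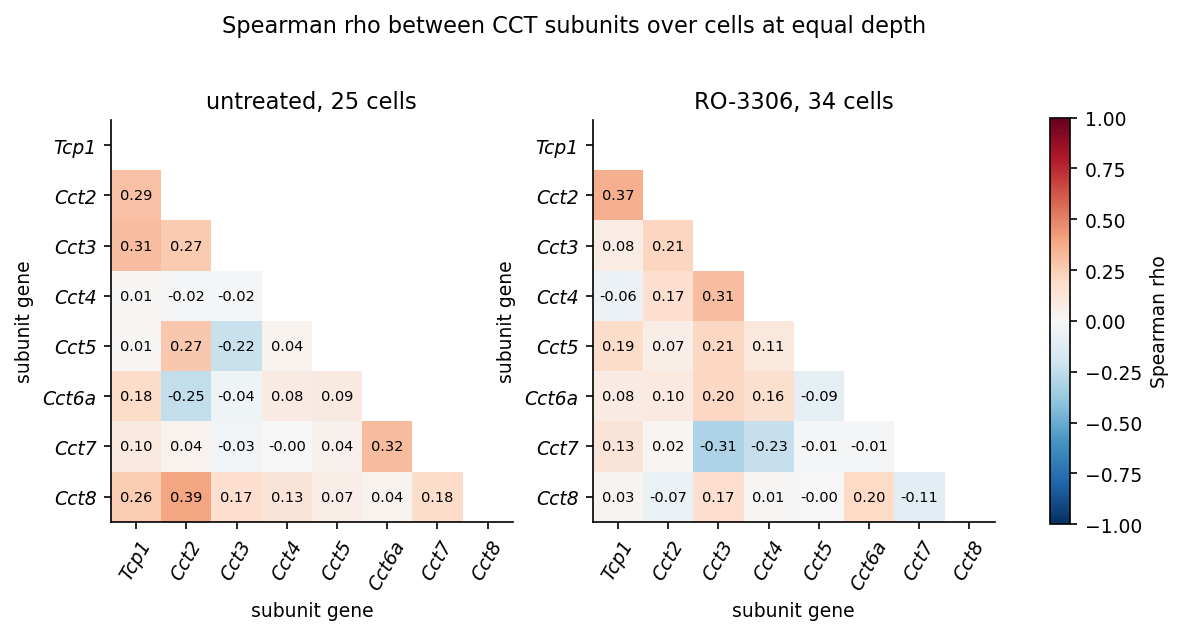
Spearman rho between subunit genes (both axes) over 25 untreated (left) and 34 RO-3306 cells (right) thinned to 1 depth, with colour and printed value per pair. No pair lies outside the range from -0.31 to 0.39, and only the untreated panel has Cct2 and Cct8 as its highest pair.

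The mean log2 level of the 8 subunits per cell was then set beside other measures of the same cells. Its Spearman coefficient with the number of genes with a read was 0.54 over untreated and 0.39 over RO-3306 cells, and with the total count before thinning it was 0.51 and 0.46. With the summed HSP70 and HSP90 genes it was 0.36 and 0.61, with the mitochondrial chaperonin 0.46 and 0.48, with the proliferation genes 0.47 and 0.45, and with prefoldin 0.24 and 0.12. Among the 2892 other genes of at least 50 CPM with a read in at least 50% of the cells of each group, the 10 most like the subunits by the smaller of the 2 within-group coefficients were Mbnl1 (0.48), Cbx5 (0.45), Arcn1 (0.45), Rab5a (0.44), Ssrp1 (0.43), Ccm2 (0.42), Hspd1 (0.42), Tmpo (0.41), Prim1 (0.41) and Ckap4 (0.41). Over all 2892 genes the median of this value was -0.04. None of these coefficients was adjusted for the number of genes or the total count. The part of these 2 measures in the coefficients and in the 10 genes was not tested. Hspd1, which encodes the mitochondrial chaperonin Hsp60, was the only other chaperonin gene among them, and it had 705 CPM in untreated and 371 CPM in RO-3306 cells (log2 ratio -0.93).

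The promoters of Cct3, Cct6a and Cct7 are shown because these were the genes lower in every lettered set. The windows, from RefSeq in build GRCm38.p6, span 250 bases before to 50 after the annotated start. They lie at chr3:88296885-88297184 (plus strand, Cct3), chr5:129787106-129787405 (plus strand, Cct6a) and chr6:85451255-85451554 (plus strand, Cct7). Capitals mark matches to CCAAT and to the GC box GGGCGG on either strand.
Cct3: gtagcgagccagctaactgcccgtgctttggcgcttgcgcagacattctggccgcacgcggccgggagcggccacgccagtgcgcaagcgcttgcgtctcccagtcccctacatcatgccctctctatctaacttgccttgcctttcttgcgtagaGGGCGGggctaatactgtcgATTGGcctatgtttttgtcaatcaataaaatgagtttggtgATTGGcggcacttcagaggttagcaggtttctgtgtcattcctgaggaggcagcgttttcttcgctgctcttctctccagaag
Cct6a: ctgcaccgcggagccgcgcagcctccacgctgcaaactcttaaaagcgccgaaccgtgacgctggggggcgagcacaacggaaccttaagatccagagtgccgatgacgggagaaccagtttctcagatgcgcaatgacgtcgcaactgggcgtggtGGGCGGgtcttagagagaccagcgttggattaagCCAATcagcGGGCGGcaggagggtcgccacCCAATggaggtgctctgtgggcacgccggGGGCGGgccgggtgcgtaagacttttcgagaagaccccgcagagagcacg
Cct7: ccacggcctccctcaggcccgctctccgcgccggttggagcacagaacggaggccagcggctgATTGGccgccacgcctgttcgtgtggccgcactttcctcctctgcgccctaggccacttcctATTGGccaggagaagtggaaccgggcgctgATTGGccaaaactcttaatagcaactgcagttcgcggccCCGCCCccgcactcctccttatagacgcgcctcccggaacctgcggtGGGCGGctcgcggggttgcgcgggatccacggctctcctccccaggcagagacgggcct
Each of these holds CCAAT at least 2 times (2 in Cct3, 2 in Cct6a, 3 in Cct7, on the minus strand in Cct3 and Cct7) and at least 1 GC box.

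The search covered 5 motifs on both strands in the 9 windows listed for 7 subunit genes, Cct2 and Cct5 having 2 windows each. No window was matched for Cct4. CCAAT was present in 4 of 9 windows (Cct3, Cct6a, Cct7 and Tcp1), where 37.4% of 32851 promoter windows held it. GGGCGG was present in 8 of 9 windows, against 35.7% of all windows. The ETS site CCGGAAG was present in 3 (Cct2, Cct8 and Tcp1) against 8.86%, and the heat shock element core GAANNTTC in 1 (Cct2) against 7.86%. The E-box CACGTG was in none, against 7.15%. No match to another motif overlapped one to GGGCGG in these windows. Tcp1 also holds CCAAT and was not among the genes lower in every set, and a match of letters says nothing of binding. Of the factors named with such promoters, Hsf1 had 66.7 CPM in untreated and 77.9 CPM in RO-3306 cells (log2 ratio 0.22), Myc had 146 and 107 CPM (-0.45), and Hsf2 was under 1 CPM in both groups.

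In pooled counts, the 6 prefoldin genes, whose products deliver actin and tubulin to the ring, lay on the other side of 0 from the subunits. All 6 had a higher pooled level in RO-3306 cells, with a median log2 ratio of 0.26, from 0.04 for Pfdn2 to 0.54 for Pfdn4. None was past 2-fold. With cells weighted equally, Vbp1 (-0.15) and Pfdn2 (-0.06) were below 0 and the other prefoldin genes above. The part of mRNA length in this contrast with the subunits was not tested. Of all 9374 genes, 3848 (41.05%) were above 0. Summed, they had 1393 CPM in untreated and 1689 CPM in RO-3306 cells, and per cell they ran from 681 through a median of 1243 to 3988 CPM and from 169 through 1676 to 2484 CPM. Of these, 2 (Pfdn1 and Pfdn5) were above 0 in all 4 sets, beside 13.1% of all genes and 23.8% of the genes in the subunits' range of mean CPM. Other genes overlap 58.7% of the Pfdn4 span. Of the 7 prefoldin-like and R2TP genes, whose complex loads other assemblies, 3 were above and 4 below 0, from Uxt (0.63) to Ruvbl1 (-0.63). Among the 3 measured phosducin-like genes, Txndc9, an inhibitor of the ring's ATPase, had 265 and 428 CPM (0.69) and Pdcl3 had the lowest ratio (-0.58). Pdcl2 was listed at 0.

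For the counts that follow, 59.0% of all 9374 genes were below 0 and 24.2% were at or below -1. Actin and tubulin, the abundant clients, had ratios on both sides of 0. Of 11 measured genes, 4 were above and 7 below, with a median of -0.09, from Actb (-0.70), with 2636 CPM in untreated and 1626 CPM in RO-3306 cells, to Tuba4a (1.34), with 102 and 261 CPM. Tuba1b was listed at 0, and its whole span lies within other gene spans. Of the 11 other clients measured, 10 were below 0 and 5 at or below -1, with a median of -0.91, from Rptor (-1.35), the mTORC1 scaffold, to Cdc20 (0.19), the mitotic activator of the anaphase promoting complex. The 5 measured tubulin folding cofactors, which take tubulin after release from the ring, ran from Tbcd (-1.85) to Tbca (0.55), with 4 below 0.

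Of the 9 measured genes of the HSP70 and HSP90 group, 7 were below 0 and 1 (Hspa4, an HSP70 exchange factor, -1.69) was at or below -1, with a median of -0.39 and Dnajb1 highest (0.23), where 59.0% of all genes were below 0. The median of this group was above 0 in set A (0.14) and below 0 in the other sets. Hspa1a and Hspb1 were listed at 0. The mitochondrial chaperonin pair split, with Hspd1 at -0.93 and its lid Hspe1 at 0.18. The subunit paralogue Cct6b had 0.242 CPM in untreated and 1.14 CPM in RO-3306 cells, and Cct8l1 was listed at 0, so the members accounted for nearly all reads of the family.

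**Figure D5:**
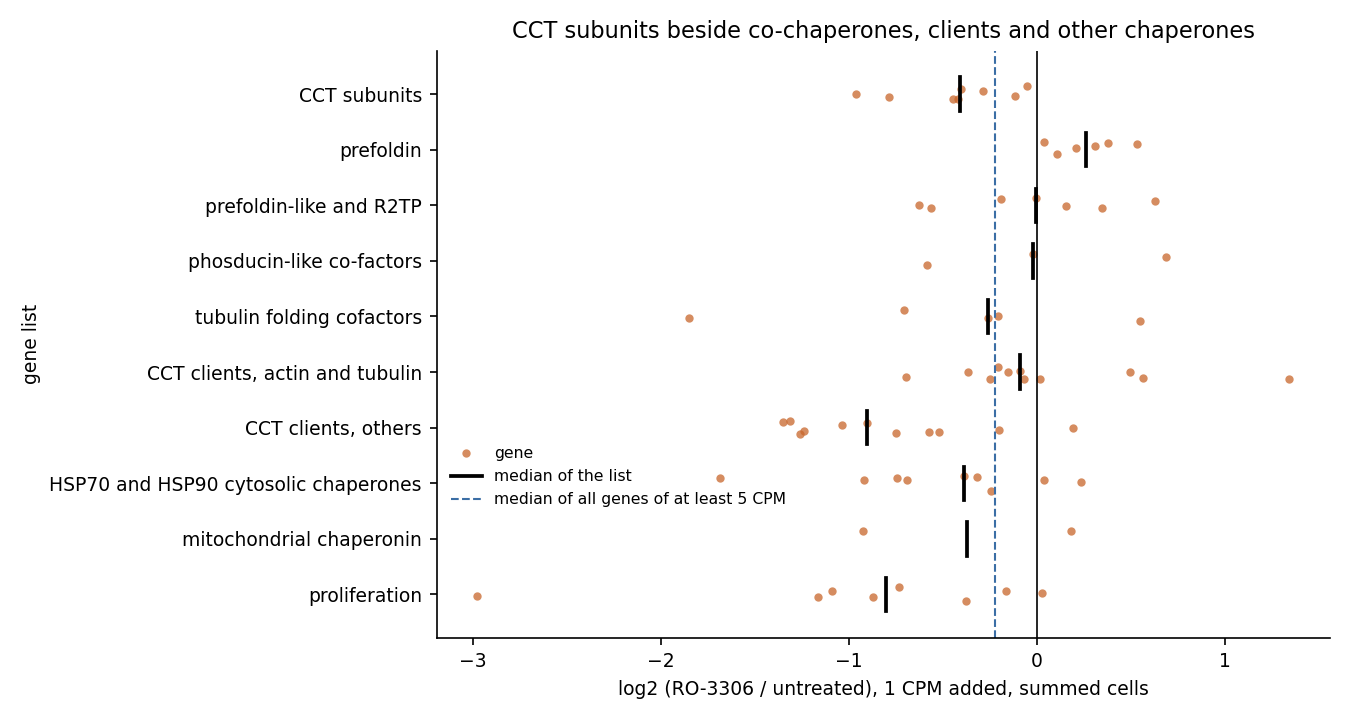
Log2 ratio of RO-3306 over untreated (x axis, 1 CPM added) for the genes of at least 5 CPM in each list (y axis), 1 point per gene, with black bars for list medians. In pooled counts scaled to the group total, as drawn, the 8 subunits all lie below 0 and the 6 prefoldin genes all above. Their medians are -0.41 and 0.26, and the dashed line marks the median of all genes (-0.22).

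Other markers moved with the groups. Of 8 proliferation genes, 7 were below 0, with a median of -0.80, from Mki67 (-2.98) to Ccnb1 (0.03). The median of this list was above 0 in set C (0.13) and below 0 in the other sets. Of all 9374 genes, 59.0% were below 0. All 7 mesenchymal markers were below 0, with a median of -0.94, from Col3a1 (-2.84) to Acta2 (-0.33), and they ran from 1329 to 11354 summed CPM per untreated cell and from 1297 to 13886 per RO-3306 cell. Of the 6 macrophage markers only Cd68, which encodes a lysosomal membrane protein, reached 5 CPM, with 0.0757 CPM in untreated and 319.8 CPM in RO-3306 cells. The list ran from 0 to 43.9 summed CPM per untreated cell and from 0 to 860.1 per RO-3306 cell, and Adgre1, Csf1r, Ptprc, Itgam and Marco were at 1.70 CPM or less in both groups. Their part in the lower subunit level was not tested. CPM are shares of the reads of a cell, so a lower CPM cannot be told apart from more RNA of other genes.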

How the data were processed

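Each library had 1 table of expected counts per gene, deposited by the authors and made with featureCounts 2.0.3 on GRCm39 with its RefSeq annotation, per the file headers. Counting covered exons and introns of each gene, and reads with several alignments were shared out as fractions, so that reads of near-identical copies of a gene cannot be placed. Fractional counts were found in 17.6% (Tcp1) to 41.5% (Cct3) of the libraries with a count of the gene. The headers set no option for strand or for overlapping genes. The submitters' processing notes name FastQC, STAR and featureCounts. From these counts, sums per group and set, CPM and log2 ratios were computed with Python 3.11.15, numpy 2.4.6, pandas 2.3.3 and scipy 1.17.1, and figures with matplotlib 3.10.9. Scaling alternatives used edgeR 4.0.16 and DESeq2 1.42.0 under R 4.3.3 on rounded sums, for factors only. The calculation of the ratios was checked on simulated counts with known ratios. Those counts had no spread between cells beyond counting error, so the check covers the arithmetic only. Thinning drew reads without replacement to 639000 reads, the 10th percentile of kept totals rounded down to a multiple of 1000. Intervals are exact Poisson or Clopper-Pearson intervals at 95%. Samples were grouped by the treatment label. The members and gene lists were chosen with earlier results of these data known. The text names all members, the genes of highest and lowest ratio in each other list, defining genes at 0, and the 10 most alike genes. In all, 19 untreated and 11 RO-3306 libraries fell under the cell filter. Positions in GRCm39 and promoters in GRCm38.p6 were never combined.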

Additional observations from a re-analysis of the deposited data

Results flagged for a closer look

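A signal appeared in libraries that the comparison did not use. The 11 RO-3306 libraries under the cell filter had a summed subunit level of 2956 CPM (95% Poisson interval 2857 to 3056), above the 106 CPM (73.9 to 146) of the 19 untreated libraries under the filter, from 3436 of 1162603 counts against 36 of 341166. Subunit reads were present in 10 of the 11 and in 8 of the 19 libraries. Of the 3436 counts, 2010 came from RO-3306 D4, which held 184369 counts over 874 genes. Without that library the level was 1458 CPM, and without the untreated library with most subunit reads (D3) it was 69.2 CPM. The left-out libraries of the groups were not alike. The minimum total of the cell filter was reached by 3 of the 11 RO-3306 and 0 of the 19 untreated libraries. The highest number of genes in a library was 4047 in RO-3306 and 1692 in untreated. These levels therefore make no comparison of the treatments, and the cause of their difference was not tested.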

How the results depend on the processing

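The ratio of the sums and the median over the 8 subunits stayed below 0 under every alternative run, in the order sum, median: -0.22 and -0.20 with TMM factors, -0.19 and -0.18 with DESeq2 size factors, -0.37 and -0.35 with cells weighted equally, -0.39 and -0.36 after thinning, -0.46 and -0.45 with at least 500000 counts and 3000 genes per cell, -0.40 and -0.39 without mitochondrial genes in the total. Without set A they were -0.55 and -0.56, without B -0.23 and -0.17, without C -0.45 and -0.46, and without D -0.47 and -0.43. After subtracting the median of genes of like length the median was -0.24. Leaving out single cells in turn gave -0.46 to -0.38 for the sum and -0.47 to -0.34 for the median. The causes were not tested. Cct3, Cct4, Cct5, Cct6a and Cct7 were below 0 in all 16 alternatives, Cct8 in 15, Cct2 in 12 (-0.49 to 0.32) and Tcp1 in 11 (-0.30 to 0.42). Cct3 passed 2-fold (-1.01) with the stricter cell filter, (-1.14) without set A and (-1.08) after subtracting the median of genes of like length. Leaving out untreated cell A1 took it to -1.03. Subunits below 0 in all 4 sets numbered 2 to 4, and no share of all genes is given for each alternative scaling. The share of all genes at or below -1 was 24.2%, but 14.4% over genes of at least 50 CPM, and at or above 1 it was 12.2% and 7.24%. Below 0 in all 4 sets it was 10.3%, 15.9% over genes of at least 50 CPM and 6.22% over genes with any count. No paired analysis was possible because no result came from a test to which a block could be added. Ratios within the lettered sets are given in its place. Each treatment was 1 sample, so no replicate error is known.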
